A study of Mus musculus with 2 samples.

Results

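Spleen natural killer (NK) cells from refed mice were set against those from fasted mice, gene by gene, in a pool of NK cells read by droplet-based single-cell RNA sequencing. The cells were chosen by their hashtag, an antibody-borne barcode that marks the population a cell came from. The deposited classification gave 1476 cells to the refed spleen population and 1391 to the fasted one, 2867 of the 7479 cells that it assigned to 1 hashtag. The pool held 10 hashtag populations of NK cells from spleen, bone marrow and tumour, run together in 1 lane. The mice were C57BL/6, 12 weeks old, and per the labels carried subcutaneous MC38 cells, a mouse colon carcinoma line. They were fed ad libitum or put through cycles of fasting, and the deposited tag list splits the latter into fasted and refed populations. It also names a naive spleen population. What naive stands for, how long the mice fasted or were refed, and how many mice gave the cells of a hashtag are not stated in the labels. The cells had been sorted as lineage-negative and positive for NK1.1 and CD49b, the surface proteins by which mouse NK cells are known.

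Each side of the comparison was therefore 1 sample. Differences between mice could not be measured, and no test was run. After 31 fasted and 25 refed cells that clustered with T cell-like or myeloid-like cells were left out, 1360 fasted and 1451 refed cells remained, with 5193214 and 7199278 unique molecular identifiers (UMIs, counted RNA molecules) in all. The refed cells were deeper, with a median of 4385 UMIs and 1610 genes per cell against 3442.5 and 1410. No cell barcode occurred more than once. All 11 NK marker genes examined were detected on both sides, and summed to 29681 CPM (UMIs scaled to a common total per population) in fasted and 28725 in refed cells. The 12 T cell markers summed to 629 and 598 CPM, with Cd4 and Cd6 at 0 in both. Of these sums Trbc1 made up 295 and 307 CPM, Trbc2 240 and 221, and Lef1 59.5 and 38.2. The 14 monocyte and macrophage markers summed to 24.8 and 16.1 CPM, with Adgre1 at 0 in both. The 7 markers of ILC1, a related innate lymphoid cell, summed to 48.9 CPM in fasted and 27.1 in refed cells, of which Il7r made up 25.4 and 9.86. The 12 dendritic cell markers summed to 76.8 and 107 CPM, of which Bst2 made up 61.8 and 91.5, with Cd209a, Clec9a, Flt3 and Xcr1 at 0 in both. The 7 basophil and mast cell markers summed to 5.97 and 14.2 CPM, of which Kit made up 5.01 and 13.6, with Fcer1a and Ms4a2 at 0 in both. Reads of ribosomal RNA made up 2.61% of fasted and 2.25% of refed UMIs, and mitochondrial genes 3.17% and 3.28%.

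Fasting raises circulating glucocorticoids and fatty acids and lowers insulin and nutrient signalling, and refeeding turns these back. Glucocorticoids act through a receptor that enters the nucleus and switches on genes such as Tsc22d3 and Fkbp5, and active FOXO factors switch on genes of resting lymphocytes when growth signalling is low. Chaperones help proteins fold. Those of the cytosol are controlled largely by heat shock factors, and those of the endoplasmic reticulum (ER) by the unfolded protein response. NK cells release perforin and granzymes to kill target cells, and secrete interferon gamma and chemokines.

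Levels below are CPM, UMIs of a gene summed over the cells of a population. A difference is the log2 ratio of CPM + 5, refed over fasted unless said otherwise, so that a positive value means higher in refed cells. Numbers in parentheses after a level or a log2 ratio are its 95% interval, exact Poisson for a level and conditional binomial for a ratio. The intervals cover counting error only and leave out differences between mice. Of 16789 gene symbols, 5419 reached 20 CPM in fasted or refed spleen cells. A gene that reached 20 CPM on 1 side only was bound to be higher on that side. Among the 5419, 70 genes (1.29%) were higher in refed cells past 1.5-fold and 62 (1.14%) were lower. At any size 2334 genes (43.1%) were higher and 3085 (56.9%) lower, and the median log2 ratio was -0.04. The split past 1.5-fold depended on the scaling, with 98 higher and 40 lower under TMM factors and 35 higher and 65 lower when each cell weighed the same. Of the 70 higher genes, 16 were heat shock or ER chaperone genes and 14 belonged to mitosis, DNA replication or histones. Of the 62 lower genes, 8 were on a list of glucocorticoid-induced genes. Another 30 higher and 47 lower genes stood on none of the 40 gene lists used.

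**Figure D1:**
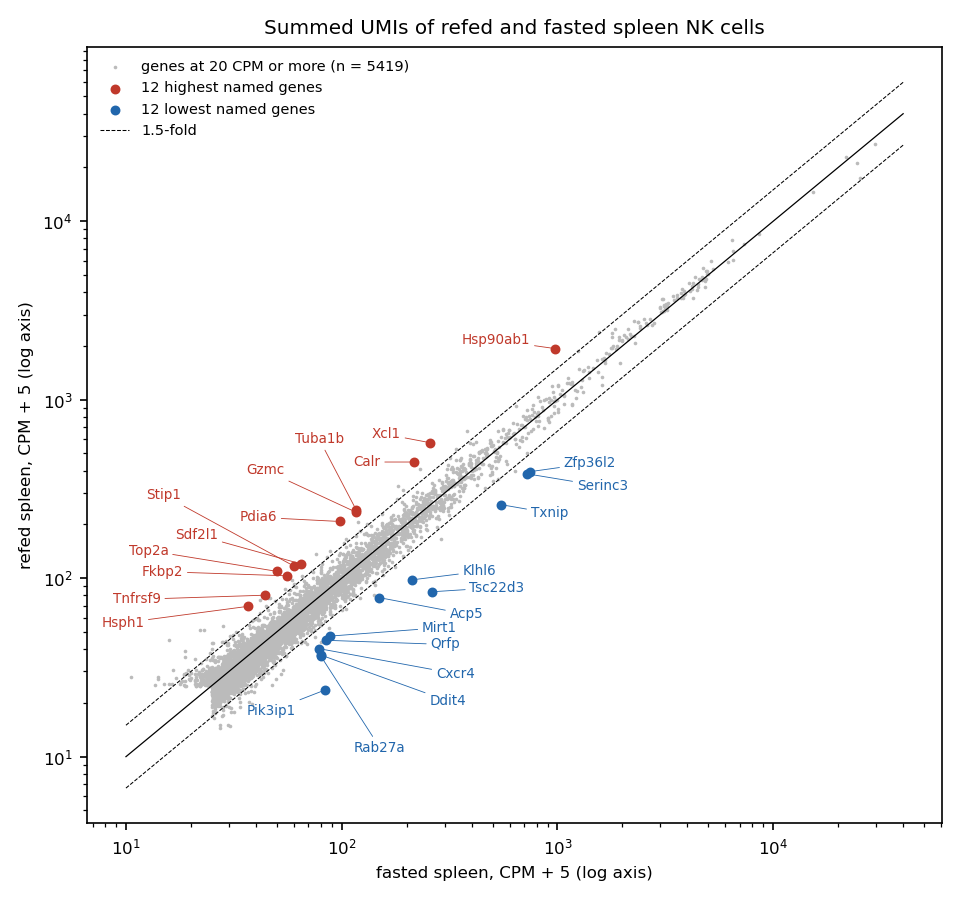
Level of each of 5419 genes in fasted (x axis) and refed (y axis) spleen NK cells, CPM + 5 on log axes, with the 12 highest and 12 lowest genes of the naming rule in colour and dashed lines at 1.5-fold. Most genes lie between the dashed lines, and Pik3ip1 and Tsc22d3 lie farthest below them.

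The lowest genes in refed cells were led by genes that glucocorticoids or FOXO factors are known to induce. Pik3ip1, an inhibitor of PI3-kinase (chr11:3330401-3342971, mm10), was at 78.6 CPM (71.1 to 86.6) in fasted cells and 18.6 CPM (15.6 to 22.1) in refed cells. The ad libitum and naive spleen populations had 17.6 and 20.1 CPM. The fasted population alone was high, and its interval overlapped none of the other 3. The log2 ratio was -1.82 (-2.06 to -1.59), with fasted cells 3.54-fold higher on the scale of CPM + 5. Tsc22d3, which encodes the glucocorticoid-induced leucine zipper GILZ (chrX:140539528-140600659), was at 257 CPM (243 to 271) in fasted and 78.9 CPM (72.5 to 85.7) in refed cells. It was at 100.5 CPM in ad libitum and 82.5 CPM in naive cells, so that fasted cells again stood apart. Its log2 ratio was -1.64 (-1.78 to -1.51).

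Among the other glucocorticoid-induced genes, Txnip, an inhibitor of glucose uptake and of thioredoxin, was at 545 CPM (525 to 566) in fasted and 253 CPM (242 to 265) in refed cells, beside 239 in ad libitum and 255 in naive cells (log2 ratio -1.09, -1.18 to -1.01). Ddit4, an inhibitor of the growth kinase mTORC1, was at 75.1 CPM in fasted, 32.1 in refed, 44.7 in ad libitum and 34.6 in naive cells (log2 ratio -1.11, -1.32 to -0.90). Cxcr4, the receptor that holds NK cells in bone marrow, was at 73.6 CPM in fasted, 35.3 in refed, 41.3 in ad libitum and 27.8 in naive cells (log2 ratio -0.96, -1.17 to -0.75). In all 3 genes the fasted interval lay above those of the other spleen populations. Fkbp5, a feedback inhibitor of the glucocorticoid receptor, went from 74.9 CPM in fasted to 39.0 CPM in refed cells (log2 ratio -0.86), and Klf9, a transcription factor induced by the same receptor, from 24.8 to 10.0 CPM (log2 ratio -0.99). Il7r, the interleukin-7 receptor chain, went from 25.4 to 9.86 CPM (log2 ratio -1.03), with 9.85% of the fasted and 16.9% of the refed UMIs from 1 cell. Without the highest cell on either side its log2 ratio was -1.08. Il7r is also a marker of ILC1, whose other 6 markers summed to 23.5 CPM in fasted and 17.2 in refed cells, and the part of such cells in the Il7r difference was not tested.

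Of the 16 genes on the glucocorticoid list, 12 reached 20 CPM. Each of the 12 was lower in refed cells, 8 of them past 1.5-fold, with a median log2 ratio of -0.98 against -0.04 over the 5419 genes. Of these 8, Pik3ip1, Klf9 and Il7r reached 20 CPM in fasted cells only, so the minimum level fixed their direction. The 4 that stayed within 1.5-fold were Sgk1 (-0.45), Tle4 (-0.27), Nfkbia (-0.21) and Dusp1 (-0.11, -0.29 to 0.06), and the interval of Dusp1 included 0. For 8 of the 12 genes the fasted interval lay above those of the refed, ad libitum and naive spleen cells, which was so for 201 (3.71%) of the 5419 genes. Against ad libitum cells the median of the 12 genes was 0.78 in fasted and -0.17 in refed cells. These 2 comparisons share the ad libitum cells, and each shares a side with the refed against fasted comparison.

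In cells thinned at random to 1500 UMIs, which leaves out the 99 fasted and 100 refed cells with fewer, 32.2% of fasted and 11.2% of refed cells had a Tsc22d3 UMI. Unthinned, the shares were 56.4% and 27.4%. Myeloid-like cells of the pool, a cluster led by Lyz2, S100a9 and S100a8, had a thinned share of 24% at a median depth of 6392 UMIs. For Pik3ip1 the thinned shares were 11.4% (9.72 to 13.3, exact binomial) in fasted and 2.81% (2.00 to 3.84) in refed cells. The myeloid-like cells had 1.60% (0.194 to 5.66), so the refed share lay within the interval of these other cells. Unthinned, 24.1% of fasted, 7.93% of refed and 10.9% of myeloid-like cells had a Pik3ip1 UMI.

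Other genes among the 12 lowest were regulators of RNA, membranes and granule release. Rab27a, a small GTPase needed for the docking of cytotoxic granules, was at 74.9 CPM (67.7 to 82.7) in fasted and 31.7 CPM (27.7 to 36.1) in refed cells, beside 28.6 in ad libitum and 33.6 in naive cells (log2 ratio -1.12, -1.34 to -0.91). Klhl6, a ubiquitin ligase adaptor of lymphocytes, was at 208 CPM in fasted, 92.9 in refed, 103 in ad libitum and 97.6 in naive cells (log2 ratio -1.12, -1.25 to -0.98). Zfp36l2, which promotes decay of AU-rich messenger RNAs, was at 743 CPM in fasted, 390 in refed, 445 in ad libitum and 420 in naive cells (log2 ratio -0.92, -0.99 to -0.85). The membrane protein gene Serinc3 (log2 ratio -0.90), the acid phosphatase gene Acp5 (-0.93), the neuropeptide gene Qrfp (-0.92) and the noncoding RNA Mirt1 (-0.90) completed the 12. In each of the 12 the fasted level was the highest of the 4 spleen populations, with an interval above the other 3. The 12 were picked by their refed against fasted ratio, which favours this order. In Mirt1 the refed level of 42.4 CPM (37.7 to 47.4) also lay below the ad libitum level of 65.5 CPM (60.2 to 71.1). The next gene after these 12 was Fkbp5.

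**Figure D2:**
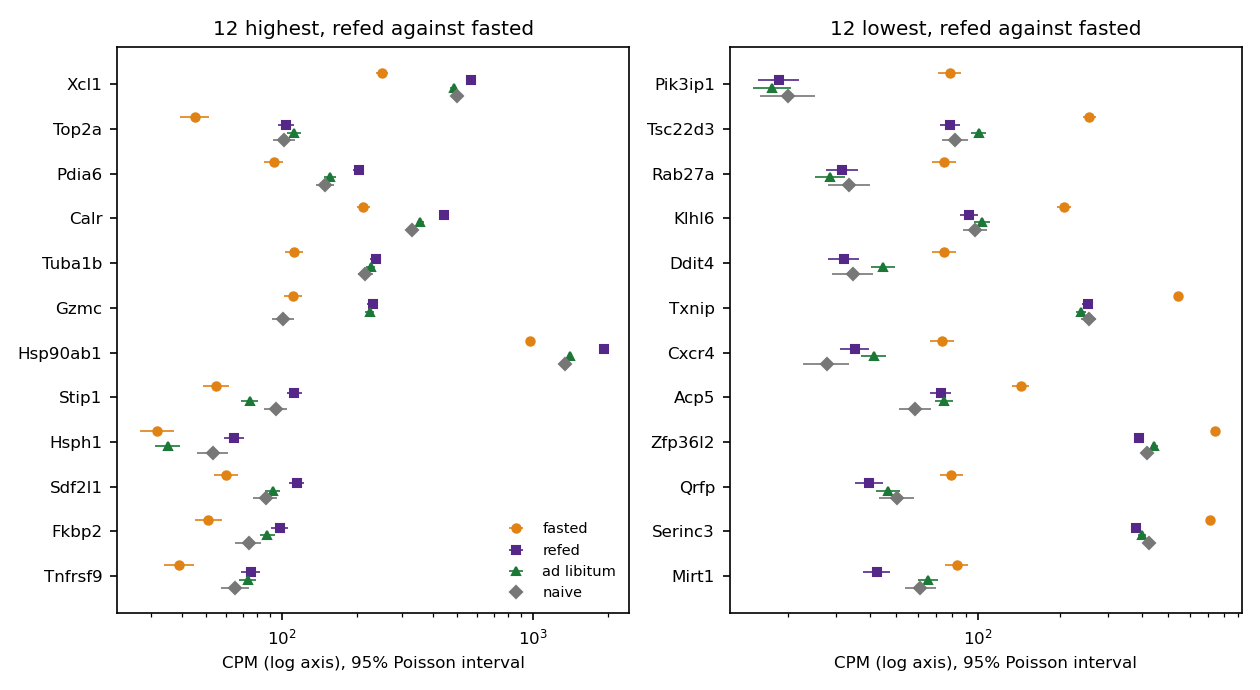
CPM (log axis) of the 12 highest and 12 lowest genes in the 4 spleen populations, each point 1 hashtag population with its 95% Poisson interval. Fasted points stand apart from the other 3 in all 12 lowest genes and in 10 of the 12 highest, Gzmc and Hsph1 being the exceptions. The genes were picked by their refed against fasted ratio.

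Quiescence genes were lower in refed cells more often than higher, and of the lipid genes 2 that bring fatty acids into mitochondria were lower past 1.5-fold. Of 18 genes of the FOXO and KLF2 list, 15 reached 20 CPM, of which 11 were lower and 4 higher, with a median of -0.22. Over all 5419 genes 56.9% were lower. Only 2 genes of the list passed 1.5-fold, Pik3ip1 and Il7r, both lower. Both are also on the glucocorticoid list and counted there, and both reached 20 CPM in fasted cells only. Klf2, a transcription factor of circulating lymphocytes, was at 1162 CPM in fasted and 941 in refed cells (log2 ratio -0.30), and the antiproliferative gene Btg1 at 1605 and 1208 CPM (-0.41). Cpt1a, which admits long-chain fatty acids to mitochondria, was at 42.6 CPM (37.1 to 48.5) in fasted, 20.3 (17.1 to 23.8) in refed, 14 in ad libitum and 15.3 in naive cells. The refed level lay between fasted and ad libitum cells, whose interval was 11.6 to 16.7 CPM. Its log2 ratio was -0.91 (-1.17 to -0.65). Slc25a20, the carnitine carrier of the same route, went from 32.4 to 15.1 CPM (log2 ratio -0.89). It reached 20 CPM in fasted cells only, so the minimum level fixed its direction. The other 13 measured genes of fatty acid oxidation stayed within 1.5-fold, and the list's median over 15 measured genes was -0.06 (0.018 under TMM factors), with 7 higher and 8 lower, close to the 56.9% lower over all 5419 genes. The list of PPAR targets, genes switched on by fatty acid receptors, had 4 of 12 genes measured and a median of -0.64, with Cpt1a and Slc25a20 among them, Ucp2 at -0.38 and Plin2 at 0.35. With no minimum level that median was -0.11. The 4 measured genes of sterol and fatty acid synthesis were higher in 4 of 4, with a median of 0.14.

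Cytosolic chaperones were higher in refed cells. Hsp90ab1, the constitutive cytosolic HSP90 (chr17:45567775-45573271), was at 973 CPM (946 to 1000) in fasted and 1927 CPM (1895 to 1960) in refed cells. Ad libitum and naive cells lay between, at 1405 and 1347 CPM, and no interval of these overlapped either side. The log2 ratio was 0.98 (0.94 to 1.03), a 1.98-fold difference. Its inducible relative Hsp90aa1 was at 374 CPM in fasted, 665 in refed, 463 in ad libitum and 492 in naive cells (log2 ratio 0.82, 0.75 to 0.90). Hsph1, a nucleotide exchange factor for HSP70, was at 32.0 CPM (27.3 to 37.2) in fasted and 64.6 CPM (58.9 to 70.7) in refed cells, beside 35.2 in ad libitum and 53.2 in naive cells (log2 ratio 0.91, 0.68 to 1.14).

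The stress-inducible HSP70 genes Hspa1a and Hspa1b were low in all spleen populations but the refed one. Hspa1b was at 10.8 CPM (8.15 to 14) in fasted, 40.0 (35.5 to 44.9) in refed, 8.78 in ad libitum and 8.73 in naive cells (log2 ratio 1.51, 1.20 to 1.81). Hspa1a was at 5.58, 22.9, 4.27 and 2.64 CPM in the same order (log2 ratio 1.40, 1.05 to 1.73). These 2 genes are nearly identical in sequence, so the split of UMIs between them is uncertain. In Hspa1b 14.3% of the fasted UMIs and in Hspa1a 10.9% of the refed UMIs came from 1 cell, and without the highest cells the log2 ratios were 1.61 and 1.37. The mitochondrial pair Hspe1 (226 to 406 CPM, log2 ratio 0.83) and Hspd1 (117 to 180 CPM, 0.60) and the constitutive HSP70 gene Hspa8 (1235 to 1859 CPM, 0.59) were past 1.5-fold too. Dnaja1 (0.55) and Dnajb1 (0.20, 0.04 to 0.36), which bring substrates to HSP70, stayed within it.

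Of 12 genes on the heat shock list, 10 reached 20 CPM, 10 of 10 were higher in refed cells and 8 past 1.5-fold, with a median log2 ratio of 0.83. Over all 5419 genes 43.1% were higher, and 1.29% were higher past 1.5-fold. Hspa1a and Hspa1b reached 20 CPM in refed cells only, so the minimum level fixed their direction. The refed interval lay above both the ad libitum and the naive interval in 8 of the 10, against 128 (2.36%) of the 5419 genes. Against ad libitum cells the list's median was -0.09 in fasted and 0.52 in refed cells. Past 1.5-fold, refed cells differed from ad libitum cells in 5 genes upward (0.0923%) and 2 downward (0.0369%). The 5 were Hspa1b (1.71), Hspa1a (1.59), Gzmd (1.12), Hsph1 (0.79) and Tnfsf14 (0.60). Most of the refed Gzmd UMIs came from a single cell, as given below. The 2 were the chemokine receptor gene Cx3cr1 (-1.08) and the phosphatase gene Dusp2 (-0.62). Some HSP90 partners outside the list were higher too in refed against fasted cells, and no full set of such partners was examined. Stip1, which links HSP70 to HSP90, was at 54.9 CPM in fasted and 112 in refed cells (log2 ratio 0.97, 0.78 to 1.15). Cacybp (0.67) and Ahsa2 (0.64), picked after their values were seen, bind HSP90 or its clients.

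Promoter sequences of the measured heat shock and ER chaperone genes were searched for the elements by which such genes are known to be controlled. Of those with a match, 4 are printed here. They are the 250 bases before the start of the gene, 5′ to 3′ on the gene's strand, from RefSeq on GRCm38.p6, with the motif in capitals. A gene was counted where any of its windows held the motif. The heat shock element was searched on both strands as GAA, 2 of any bases, TTC, 2 of any bases and GAA. It stood in 3 of 7 measured heat shock genes with a promoter sequence (Hsph1, Hspe1 and Hspd1). Hspa1a, Hspa1b, Dnaja1 and Dnajb1 had no match, and Hsp90ab1, Hsp90aa1 and Hspa8 had no promoter sequence to search. The element stood in 0.603% of all 32851 promoter windows of 300 bases, and in 64 of 12050 genes of the matrix (0.531%). The ER stress element, CCAAT, 9 of any bases and CCACG on both strands, stood in 7 of 15 measured ER chaperone genes (Hspa5, Hsp90b1, Pdia6, Calr, Canx, Dnajc3 and Creld2). It stood in 0.119% of all windows and in 22 of the 12050 genes (0.183%). Its first letters are a CCAAT box, which alone stood in 37.4% of windows. Both elements were chosen after the expression values were seen, and a match is only a description of the letters. In the first line the capitals hold 2 overlapping matches, 1 on each strand.
Hspe1, chr1:55087898-55088147, plus strand: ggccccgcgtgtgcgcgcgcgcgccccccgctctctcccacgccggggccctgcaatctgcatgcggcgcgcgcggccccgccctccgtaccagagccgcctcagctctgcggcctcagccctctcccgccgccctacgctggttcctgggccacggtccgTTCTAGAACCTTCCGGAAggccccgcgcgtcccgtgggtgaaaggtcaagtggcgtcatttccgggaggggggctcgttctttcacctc
Calr, chr8:84846932-84847181, minus strand: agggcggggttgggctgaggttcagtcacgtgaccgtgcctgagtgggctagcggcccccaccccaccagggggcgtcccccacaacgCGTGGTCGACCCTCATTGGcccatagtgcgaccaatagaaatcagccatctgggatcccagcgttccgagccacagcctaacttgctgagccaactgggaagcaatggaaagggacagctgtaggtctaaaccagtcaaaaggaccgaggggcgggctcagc
Pdia6, chr12:17266339-17266588, plus strand: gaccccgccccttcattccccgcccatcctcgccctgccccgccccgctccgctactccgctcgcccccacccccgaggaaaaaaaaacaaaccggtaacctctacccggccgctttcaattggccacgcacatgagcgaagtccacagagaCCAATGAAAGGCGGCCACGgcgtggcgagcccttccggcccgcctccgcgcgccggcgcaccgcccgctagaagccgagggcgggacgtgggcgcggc
Hsp90b1, chr10:86705445-86705694, minus strand: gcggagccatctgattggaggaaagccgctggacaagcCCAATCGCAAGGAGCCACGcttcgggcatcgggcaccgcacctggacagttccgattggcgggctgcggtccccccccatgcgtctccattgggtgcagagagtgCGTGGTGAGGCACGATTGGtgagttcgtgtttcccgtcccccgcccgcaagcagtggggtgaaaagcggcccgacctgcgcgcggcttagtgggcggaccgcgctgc
Between match and start lie 71 and 76 bases in Hspe1, 143 in Calr, 79 in Pdia6, and 88 and 193 in Hsp90b1.

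Of the ER chaperones with a match, Calr, Pdia6, Hsp90b1 and Hspa5 were higher in refed than in fasted cells, with ad libitum and naive cells between. The same order held for Sdf2l1, which had no match. Calr, the calcium-binding lectin chaperone calreticulin, was at 211 CPM (199 to 224) in fasted and 442 CPM (427 to 458) in refed cells, beside 357 in ad libitum and 332 in naive cells. The log2 ratio was 1.05 (0.95 to 1.15). Pdia6, a disulfide isomerase, was at 92.8 CPM (84.7 to 101.5) in fasted and 203 CPM (193 to 214) in refed cells, beside 156 and 149 in ad libitum and naive cells (log2 ratio 1.09, 0.94 to 1.23). Neither gene's refed or fasted interval overlapped that of another spleen population. Hsp90b1, the HSP90 of the ER, was at 335 CPM in fasted, 526 in refed, 434 in ad libitum and 461 in naive cells (log2 ratio 0.64, 0.56 to 0.72). Hspa5, the ER HSP70 known as BiP, was at 312 CPM in fasted, 464 in refed, 396 in ad libitum and 379 in naive cells (log2 ratio 0.56, 0.48 to 0.65), just within 1.5-fold.

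Sdf2l1, a cofactor of BiP, was at 60.1 CPM in fasted, 115 in refed, 91.9 in ad libitum and 86.2 in naive cells (log2 ratio 0.88, 0.71 to 1.06). Fkbp2, a prolyl isomerase of the ER that is on no list, was at 51.0, 98.1, 87.7 and 73.8 CPM in the same order (log2 ratio 0.88, 0.69 to 1.07). Some ER genes differed little or in the other direction. Xbp1, a transcription factor of the unfolded protein response, had a log2 ratio of 0.29 (0.07 to 0.52), Dnajb9 of -0.08 (-0.36 to 0.21) and Herpud1, a gene of ER-associated degradation, of -0.18 (-0.33 to -0.03). Over all 5419 genes 43.1% were higher, and 1.29% were higher past 1.5-fold. Of 17 ER genes listed, 16 reached 20 CPM, with 14 higher and 2 lower, 8 higher past 1.5-fold, and a median log2 ratio of 0.58. Against ad libitum cells the median was -0.35 in fasted and 0.21 in refed cells, which share those ad libitum cells.

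**Figure D3:**
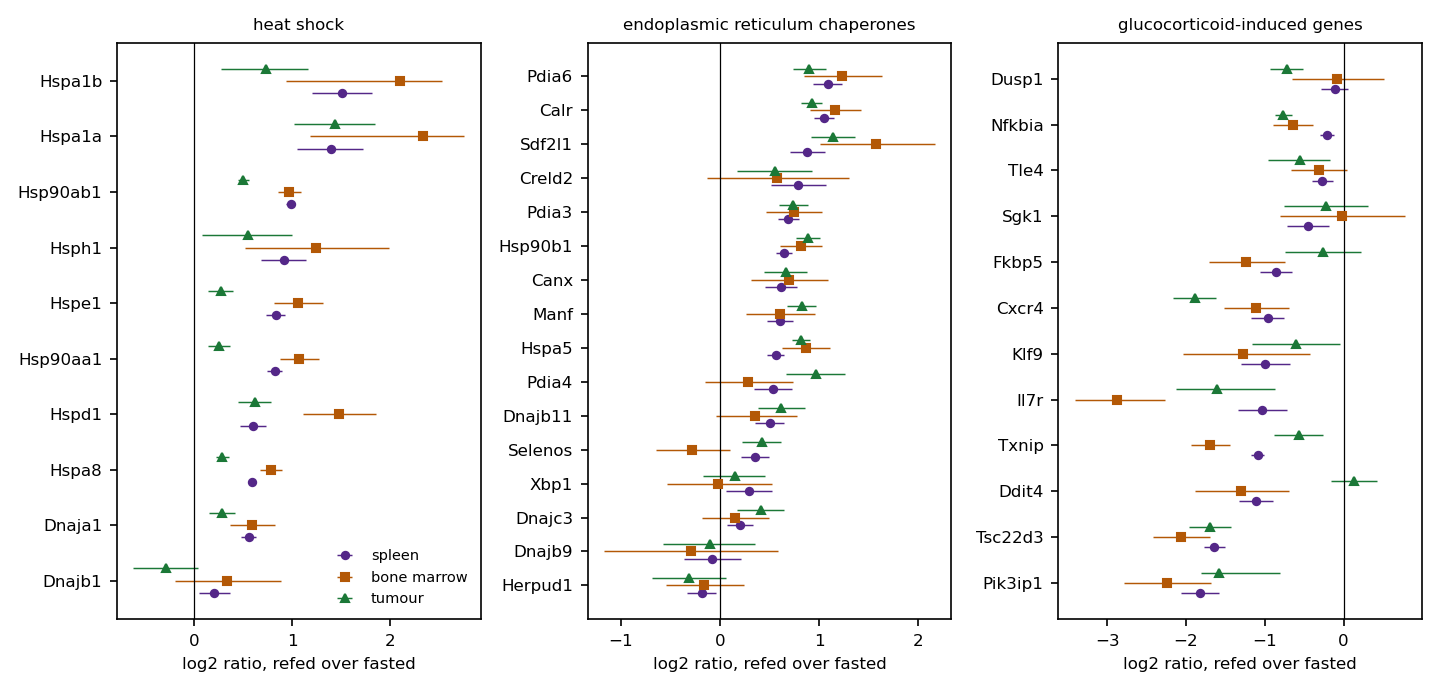
Log2 ratio of CPM + 5, refed over fasted, for the measured genes of 3 lists in spleen, bone marrow and tumour NK cells, with 95% counting intervals. Spleen and bone marrow points lie on the same side of 0 for all 10 heat shock genes and all 12 glucocorticoid-induced genes, and the bone marrow intervals are wide because its fasted population had 118 cells.

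The same genes were read in the refed and fasted populations of the other tissues, which share no cells with the spleen. Whether the same mice gave these tissues and the spleen is not stated in the labels, and all were run in 1 lane. The tissues can therefore not be taken as independent readings. Over the 5419 genes, 9.21% were higher and 12.2% lower past 1.5-fold in bone marrow, where the fasted side had 118 cells, and 3.25% and 6.72% in tumour, where the refed side had 91. At any size 45.1% of the 5419 genes were higher in refed bone marrow and 47.9% in refed tumour, and 54.9% and 52.1% were lower. The heat shock genes were higher in refed bone marrow in 10 of 10 and in refed tumour in 9 of 10, with medians of 1.07 and 0.39. For Hsp90ab1, bone marrow gave a log2 ratio of 0.97 and tumour 0.50, beside 0.98 for spleen. The ER chaperones had medians of 0.59 in bone marrow and 0.70 in tumour, with 12 and 14 of 16 higher. The glucocorticoid-induced genes were lower in 12 of 12 in bone marrow and 11 of 12 in tumour, with medians of -1.26 and -0.66. Ddit4 was the exception, at 0.13 in tumour against -1.11 in spleen, and Rab27a likewise had 0.32 in tumour against -1.12 in spleen. Whether the tissues differ was not tested.

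Among secreted and surface proteins of NK cells, the chemokine Xcl1 had the highest log2 ratio of the genes at 50 CPM or more. Xcl1 (chr1:164931644-164935527), which draws cross-presenting dendritic cells, was at 252 CPM (238 to 266) in fasted and 569 CPM (552 to 587) in refed cells. Ad libitum and naive cells had 484 and 497 CPM, so fasted cells were low and refed cells the highest of the 4. The log2 ratio was 1.16 (1.07 to 1.25), and 1.21 without the highest cell on either side. After thinning, 19.4% of fasted (17.3 to 21.7) and 29.9% of refed cells (27.5 to 32.4) had an Xcl1 UMI, against 14.4% (8.76 to 21.8) of myeloid-like cells. Unthinned, the shares were 34.1% and 50.4% at median depths of 3442.5 and 4385 UMIs. Tnfrsf9, the costimulatory receptor 4-1BB, was at 39.1 CPM in fasted, 75.3 in refed, 73.1 in ad libitum and 65.1 in naive cells (log2 ratio 0.86, 0.65 to 1.08).

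Other secreted products differed less. Ccl4 was at 636 CPM in fasted and 911 in refed cells (log2 ratio 0.52), and Ccl3 at 592 and 671 CPM (0.18), with ad libitum cells at 978 CPM for Ccl3. Ccl5, an abundant chemokine of mature NK cells, went the other way, from 25345 to 17542 CPM (log2 ratio -0.53, -0.54 to -0.52). Inside each of the authors' 8 clusters compared below, the Ccl5 ratio was smaller in size, between -0.49 in cluster 4 and -0.11 in cluster 6. The intervals of clusters 6 and 9 included 0. The part of the cluster mix in the Ccl5 difference was not tested. Ifng, encoding interferon gamma, was at 207 CPM in fasted and 213 in refed cells (log2 ratio 0.04, -0.07 to 0.15), an interval that includes 0. Inside the clusters Ifng ranged from -0.61 (-1.26 to 0.02) in cluster 7 to 0.73 (0.49 to 0.97) in cluster 1. Of 13 listed cytokine genes 8 reached 20 CPM, with 5 higher and 3 lower and only Xcl1 past 1.5-fold. Over all 5419 genes 43.1% were higher and 56.9% lower.

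Of the killing genes described, Gzmm, Gzmc, Gzmd and Rab27a were past 1.5-fold. Prf1, encoding perforin, was at 314 CPM in fasted and 320 in refed cells (log2 ratio 0.02, -0.07 to 0.12), and Gzmb at 877 and 999 CPM (0.19, 0.13 to 0.24). Inside the authors' clusters Prf1 ranged from -0.06 in cluster 7 to 0.44 in cluster 6. Gzmb ranged from 0.04 in cluster 3 to 1.31 in cluster 6. Gzma had a log2 ratio of -0.07, which turned to between 0.0042 and 0.11 under TMM factors, equal weight per cell, thinning, equal cluster weights and the depth window of 2000 to 6000 UMIs. Gzmm was at 13.9 CPM in fasted and 34.3 in refed cells (log2 ratio 1.06, 0.76 to 1.36), beside 26.6 and 27.8 in ad libitum and naive cells. Fasted cells did not reach 20 CPM for Gzmm, so the minimum level fixed its direction. Gzmc was at 111 and 230 CPM (log2 ratio 1.02), but 34.2% of its refed UMIs came from 1 cell. Without the highest cell on either side its log2 ratio was 0.44, and it was negative with equal cluster weights (-0.25), without the 10% of cells with most UMIs (-0.34) and at 2000 to 6000 UMIs (-0.22). In Gzmd, a close relative of Gzmc, 66.8% of refed UMIs came from 1 cell and the log2 ratio was 0.95 with and -0.25 without the highest cells. The authors' counting can split UMIs between these granzymes, so single values are uncertain. Of 19 cytotoxic genes 17 reached 20 CPM, with 10 higher, 7 lower and a median of 0.02. Over all 5419 genes 43.1% were higher and 56.9% lower, with a median of -0.04.

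Receptors and transcription factors that define NK cells showed small differences. Over all 5419 genes 56.9% were lower, with a median log2 ratio of -0.04. Of 21 Klr genes, the lectin-like receptors of the NK gene complex, 18 reached 20 CPM, with 14 lower, 4 higher and a median of -0.17. Only Klrc3 passed 1.5-fold (23.1 to 13.2 CPM, log2 ratio -0.63), and it reached 20 CPM in fasted cells only, which fixed its direction. Its neighbour Klrc2 had -0.52, Klrk1, encoding NKG2D, -0.24, and Klra1, encoding an inhibitory Ly49 receptor, 0.17. The Klra and Klrc genes are close copies, and UMIs may be split between them. Ncr1, encoding NKp46, had 0.10, Eomes 0.16 and Tbx21 0.20, these last 2 being the T-box factors of NK identity. Of 22 measured genes on the NK transcription factor list 16 were lower and 6 higher. Only Zfp36l2 passed 1.5-fold, and its product acts on messenger RNA decay, so no transcription factor of the list did. Lgals1, encoding galectin-1, was the only 1 of 16 measured mature NK genes past 1.5-fold, at 1549 CPM in fasted, 2387 in refed, 2490 in ad libitum and 2309 in naive cells (log2 ratio 0.62, 0.58 to 0.66). Bcl2l11, encoding the death protein BIM, was at 116 CPM in fasted and 72.9 in refed cells (log2 ratio -0.63), and its opponent Bcl2 at 455 and 314 CPM (-0.53).

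**Figure D4:**
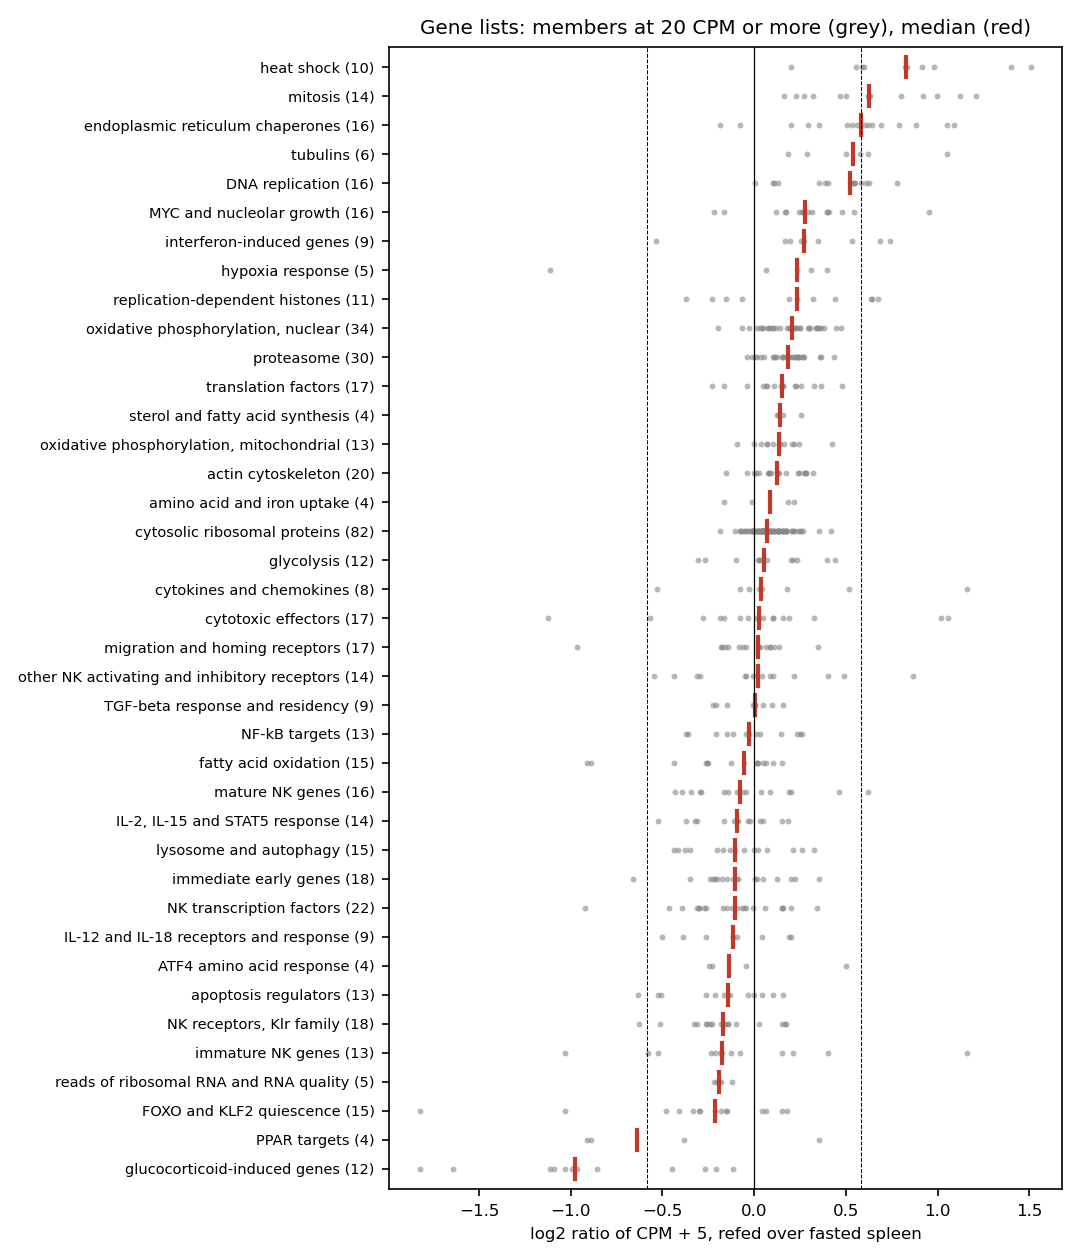
Log2 ratio of CPM + 5, refed over fasted spleen, of each measured gene (grey points) by gene list, with list medians in red, dashed lines at 1.5-fold and the number of measured genes in parentheses. Heat shock (0.83), mitosis (0.63) and ER chaperones (0.58) have the highest medians and glucocorticoid-induced genes (-0.98) the lowest.

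Genes of dividing cells were higher in refed cells in the summed UMIs, by an amount that depended on which cells entered the sum. Mki67, a marker of cycling cells, was at 17.1 CPM (13.8 to 21.1) in fasted and 46.3 CPM (41.4 to 51.5) in refed cells, beside 53.9 and 54.2 in ad libitum and naive cells (log2 ratio 1.21, 0.93 to 1.49). Top2a, a topoisomerase of dividing cells, was at 45.1, 104, 112 and 102 CPM in the same order (log2 ratio 1.12, 0.93 to 1.32). Fasted cells were the low population for both genes, and the refed intervals overlapped those of naive cells. Of 29 mitosis genes 14 reached 20 CPM, 14 of 14 higher and 8 past 1.5-fold, with a median of 0.63. Mki67 reached that level in refed cells only, which fixed its direction. Of 23 DNA replication genes 16 reached 20 CPM, 16 of 16 higher and 3 past 1.5-fold, with a median of 0.52. Over all 5419 genes 43.1% were higher, and 1.29% were higher past 1.5-fold. The re-clustering put 8 fasted and 67 refed cells, with a pool median of 11632 UMIs, in a cluster led by Mki67. Since these genes define that cluster, leaving it out lowers their level by construction. Without it the mitosis median and the Top2a log2 ratio were both 0.00052, the DNA replication median was 0.054, and 34 genes were higher and 48 lower past 1.5-fold in all. In cells of 2000 to 6000 UMIs the DNA replication median was -0.01. After thinning, 1.98% of fasted (1.29 to 2.91) and 3.92% of refed cells (2.95 to 5.10) had an Mki67 UMI, and so did 3.20% (0.879 to 7.99) of myeloid-like cells. Unthinned, the Mki67 shares were 4.49%, 7.24% and 11.7%.

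The Top2a promoter is shown for a motif of cell cycle genes, the cell cycle homology region TTTGAA, searched on both strands, with its 2 matches in capitals. The motif stood in 10 of 12 measured mitosis genes of the promoter table, in 15.1% of 12050 genes of the matrix and in 17.9% of all windows.
Top2a, chr11:99024190-99024439, minus strand: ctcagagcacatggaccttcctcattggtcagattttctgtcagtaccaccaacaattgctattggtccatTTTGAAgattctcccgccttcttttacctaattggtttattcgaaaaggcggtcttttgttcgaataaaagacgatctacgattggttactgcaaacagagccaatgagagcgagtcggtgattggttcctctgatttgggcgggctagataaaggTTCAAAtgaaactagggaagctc
Between match and start lie 173 and 17 bases. The glucocorticoid response element was searched on both strands as AGAACA, 3 of any bases, TGT, 1 of any base and CT. It stood in 1 of 12 glucocorticoid-induced genes (Sgk1, with 6 windows). Over the matrix it stood in 2 of 12050 genes (0.0166%), and in 0.0396% of all windows. None is printed.

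Genes of growth, energy use, proteasome and cytoskeleton were higher more often than lower in refed cells, with the tubulins highest among these groups. Over all 5419 genes 43.1% were higher and 56.9% lower, with a median log2 ratio of -0.04. Srm, which makes spermidine, was the only gene of the MYC and nucleolar list past 1.5-fold (9.05 to 22.2 CPM, log2 ratio 0.95), and Myc itself had -0.17 (-0.46 to 0.12). That list had 14 of 16 measured genes higher, with a median of 0.28, and Srm reached 20 CPM in refed cells only. Nuclear genes of oxidative phosphorylation had 31 of 34 higher with a median of 0.21, proteasome genes 28 of 30 with 0.18, and actin cytoskeleton genes 18 of 20 with 0.13, and none of these passed 1.5-fold. Tubulin genes had 6 of 6 measured higher with a median of 0.54, led by Tuba1b (112 to 236 CPM, log2 ratio 1.05, and between 0.45 and 1.12 over the alternatives). Interferon-induced genes had 8 of 9 higher with a median of 0.27. Isg15, a ubiquitin-like protein of that response, was at 41.6 CPM in fasted and 72.8 in refed cells (log2 ratio 0.74), with 11.1% of the fasted UMIs from 1 cell.

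The comparison was repeated inside each of the authors' 8 clusters that held at least 20 cells on both sides. The numbers of fasted and refed cells were 336 and 309 in cluster 1, 124 and 221 in cluster 2, 350 and 217 in cluster 3, 199 and 215 in cluster 4, 103 and 217 in cluster 5, 53 and 58 in cluster 6, 99 and 73 in cluster 7, and 69 and 77 in cluster 9. In these clusters, in the same order, 1.16%, 2.9%, 0.809%, 2.38%, 3.26%, 16.4%, 11.3% and 15.9% of genes at 100 CPM were higher in refed cells past 1.5-fold. The shares lower were 1.23%, 2.61%, 1.4%, 1.86%, 4.21%, 16.9%, 8.76% and 17.4%. The 3 clusters with the largest shares, 6, 7 and 9, were the shallowest, with median depths between 1233 and 2750 UMIs.

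The genes low in refed cells were low in nearly every cluster. The 12 lowest and 12 highest genes were picked by their ratio over these same cells, which favours 1 direction across clusters. The share of all genes with 1 direction in all 8 clusters is not given here. Of the 12 lowest genes 11 were lower in refed cells in all 8 clusters, and Cxcr4 in 7 of 8, with 0.24 in cluster 6. Tsc22d3 ranged from -2.09 in cluster 9 to -0.95 in cluster 7, and Txnip from -1.40 to -0.61. Pik3ip1 had no refed UMI in clusters 6 and 7, where fasted cells had 12 and 33 UMIs. The median of the glucocorticoid-induced genes was below 0 in all 8 clusters, between -1.12 and -0.49. Of the 12 highest genes 6 were higher in refed cells in all 8 clusters, namely Pdia6, Calr, Hsp90ab1, Stip1, Hsph1 and Tnfrsf9. Hsp90ab1 was the most even of these, between 0.68 and 1.00. Xcl1 was higher in 7 of 8 clusters, from 1.08 to 1.75, and had -0.15 in cluster 7. Gzmc was higher in 1 of 8 and Top2a in 5 of 8. The heat shock medians lay between 0.44 and 0.81 and the ER chaperone medians between 0.36 and 0.74. Cells of 1 cluster come from the same hashtag populations, so the 8 clusters are no replicates.

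**Figure D5:**
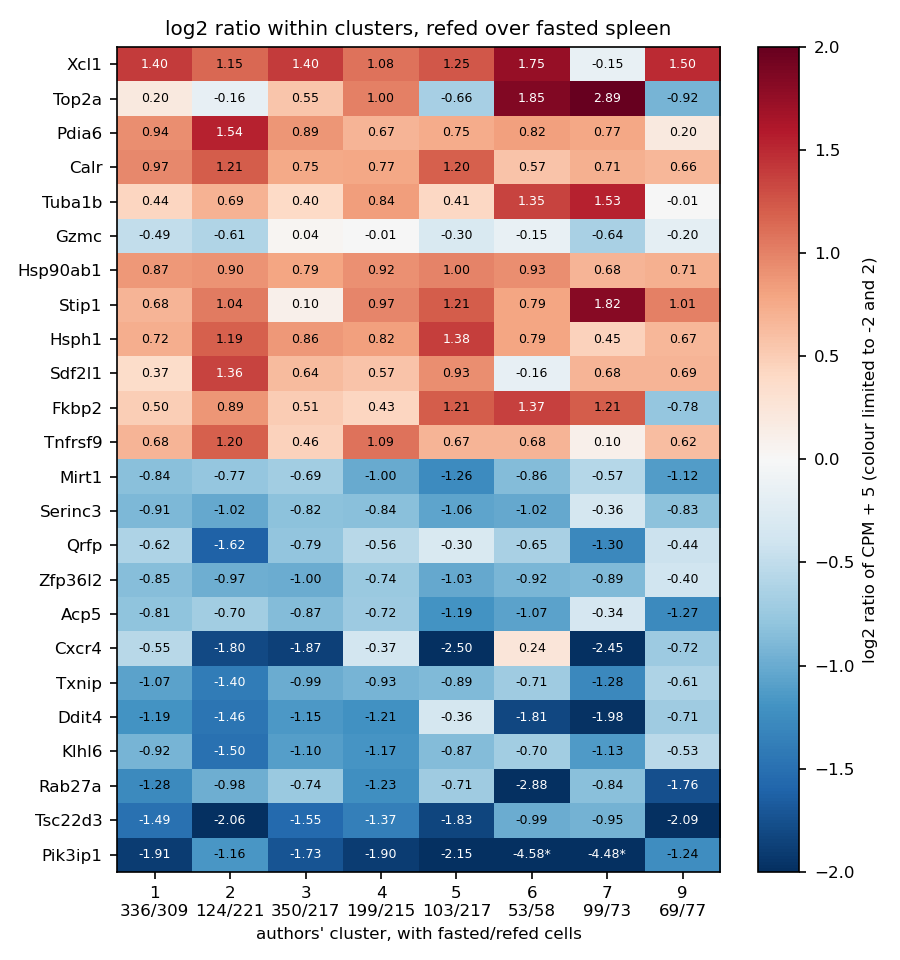
Log2 ratio of CPM + 5, refed over fasted, of the 12 highest and 12 lowest genes (rows) in 8 of the authors' clusters (columns, with fasted and refed cell numbers below), where an asterisk marks no refed UMI, so that the ratio depends on the added 5 CPM. Tsc22d3 and Pik3ip1 are below 0 in every column and Hsp90ab1 and Calr above 0 in every column, while Gzmc is near or below 0 in all 8.

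More genes differed from ad libitum spleen cells in the fasted than in the refed population. Past 1.5-fold, 50 genes (0.923%) were higher and 55 (1.01%) lower in fasted than in ad libitum cells, against the 5 and 2 genes given above for refed cells, and these comparisons share the ad libitum cells. Of the 12 highest genes, refed cells were above both ad libitum and naive cells in 11, Top2a being the exception. Of the 12 lowest, refed cells were above ad libitum cells in 3 and above both in none. Both sets were picked by their refed against fasted ratio, which favours such counts. The shares over all measured genes are not given here. Genes lower in refed cells that stand on no list, picked after their values were seen, include the cholesterol exporter Abca1 (33.3 to 14.7 CPM, log2 ratio -0.96), the cold-inducible RNA-binding gene Cirbp (136 to 75.7 CPM, -0.80), the antiviral deaminase gene Apobec3 (283 to 161 CPM, -0.80) and the autophagy kinase Ulk2 (32.9 to 18.5 CPM, -0.69). Abca1, Cirbp and Apobec3 were lower in 8 of 8 clusters and Ulk2 in 7. Abca1 and Ulk2 reached 20 CPM in fasted cells only, which fixed their direction over all cells. The nucleoside diphosphate kinase Nme1 (177 to 323 CPM, 0.85) and the pyrophosphatase Ppa1 (18.1 to 46.4 CPM, 1.15), picked the same way, were higher in 8 and 6 of 8. Ppa1 reached 20 CPM in refed cells only, which fixed its direction over all cells.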

How the data were processed

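Cells of 10 hashtag populations were run in 1 lane of droplet-based single-cell RNA sequencing. The deposited matrix holds counts of UMIs for 13118 cells and 16789 gene symbols, made by the authors with SEQC (per the labels' protocols), with mm10 as genome build (submitters' processing notes). The deposited classification called 5606 of 13085 classified cells doublets (42.8%), and these were left out. How hashtags were called and clusters made is not stated in the labels. Cells were re-clustered (scanpy 1.11.5, leidenalg 0.10.2, resolution 0.8) only to leave out T cell-like and myeloid-like clusters. UMIs were summed per population and scaled to CPM, and log2 ratios took CPM + 5. Genes needed 20 CPM in fasted or refed cells, and 100 CPM within clusters, and a call was a ratio past 1.5-fold. With 1 hashtag population a side, no test could be made. Named genes were the 12 highest and 12 lowest at 50 CPM whose interval left out a ratio of 1 (leaving aside unnamed models, antigen receptor, haemoglobin, ribosomal protein and mitochondrial genes), the 2 highest and 2 lowest of each list, and 20 NK genes. Further genes were named after their values were seen. The members and lists were chosen with earlier results of these data known. Alternatives were other scalings (edgeR 4.0.16 for TMM), weights, pseudocounts, minimum levels and left-out cells, 15 in all, of which 2 were added after seeing the data. Gene positions are from GENCODE M21. R 4.3.3, matplotlib 3.10.9, pandas 2.3.3, scipy 1.17.1, numpy 2.4.6 and Python 3.11.15 were used, and the counting was checked on simulated data.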

Additional observations from a re-analysis of the deposited data

Results flagged for a closer look

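Gzmc, a granzyme gene, was higher in refed than in fasted spleen cells (log2 ratio 1.02) and lower in refed than in fasted bone marrow cells (-0.60), so that the 1 population pair of each tissue went in opposite directions. The difference between the tissues was not tested. The spleen direction was not stable. In spleen 34.2% of the refed Gzmc UMIs came from 1 cell, the log2 ratio was 0.44 without the highest cell on either side, and it was negative under 3 alternatives, from -0.34 to -0.22. Within the authors' clusters it was above 0 in 1 of 8.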

How the results depend on the processing

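No paired analysis was possible because each side is 1 hashtag population and the labels give no replicate numbers. For the same reason no replicate could be left out. Against 70 higher and 62 lower genes, lower genes numbered 40 under TMM factors, 140 after thinning and 155 with equal cluster weights. Higher genes numbered 35 as means over cells, 29 without the 10% of cells with most UMIs, 34 without the dividing cluster and 30 at 2000 to 6000 UMIs. With a pseudocount of 20 there were 33 and 22, with no minimum level 131 and 105, and at 50 CPM 40 and 27. Of 2625 values of 175 named genes, 82 changed sign, in 36 genes, and of 600 list medians 27 did, in 15 lists. Given here are the 22 and 9 whose main log2 ratio had an interval without 0, or whose main median was at least 0.1 in size, and the other 60 had an interval with 0 in it and the other 18 a smaller median. These were, under TMM, means over cells, thinning, equal weights and the UMI window, 0.0042, 0.010, 0.021, 0.031 and 0.11 for Gzma. Under equal weights they were -0.25 for Gzmc, -0.050 for Cks2, 0.036 for Hist1h1c, 0.0038 for Gm42418, 0.078 for the lysosome list and 0.090 for the IL-12 and IL-18 list. After thinning Slc2a3 was at 0.091 and Cd9 at 0.030. Without the deepest 10% Gzmc was at -0.34, Hist1h1b at -0.19 and the histone list at -0.17. Without the dividing cluster Hist1h1b was at -0.37, Dut at -0.071, Hist1h2ae at -0.010 and the histone list at -0.20. In the UMI window Gzmc was at -0.22, Hist1h1b at -0.079, Dut at -0.023, Phgdh at -0.0032, Malat1 at 0.033, the histone list at -0.0055 and the replication list at -0.013. With no minimum level the ATF4 list was at 0.038 and the hypoxia list at -0.062, and at 50 CPM the latter was at -0.52. Ifitm3 was at 0.032 without its highest cell. Causes were not tested. The glucocorticoid, heat shock and ER chaperone medians kept their sign in all 15 alternatives, between -1.07 and -0.65, 0.56 and 0.90, and 0.47 and 0.66. Refed cells were deeper than fasted cells, and with 1 population a side, differences between mice and differences between feeding states cannot be told apart.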

Other observations

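Cytosolic ribosomal protein genes were higher in refed cells in 67 of 82 measured, with a median log2 ratio of 0.07, and translation factors in 14 of 17, with 0.15. Glycolysis genes had 9 of 12 higher with a median of 0.05, while in tumour 12 of 12 were higher with a median of 0.72. Both measured genes of the 17 on the circadian clock list were lower, Clock (-0.39) and Bhlhe40 (-0.30). Apoptosis regulators had 10 of 13 lower with a median of -0.14. The 5 genes of ribosomal RNA and RNA quality were lower in 5 of 5, with a median of -0.19. Over all 5419 genes 43.1% were higher and 56.9% lower in refed spleen cells, and 47.9% were higher in refed tumour cells.

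The interleukin-18 receptor gene Il18r1 was at 270 CPM in fasted and 189 in refed cells, with 189 in ad libitum and 208 in naive cells (log2 ratio -0.50). The costimulatory receptor gene Slamf7 was at 93.6 CPM in fasted and 134 in refed cells, with 176 in ad libitum and 165 in naive cells (log2 ratio 0.49).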
